A study of Mus musculus with 6 samples.

Results

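The miR-26 family of mouse kidney was followed through the 5 mature sequences that carry its name in a table of 1542 miRNA entries. They are the guide arms mmu-miR-26a-5p and mmu-miR-26b-5p and the minor arms mmu-miR-26a-1-3p, mmu-miR-26a-2-3p and mmu-miR-26b-3p, each found by its exact name and written below without the species prefix. Small RNA was sequenced from the kidneys of female mice aged 17 weeks, with 3 libraries from the MRL/lpr strain (genotype MRL/MpJ-Fas<lpr>/J in the labels) and 3 from the C57BL/6 strain. In MRL/lpr mice every cell has the lpr allele, a loss-of-function mutation of the death receptor gene Fas, and the animals develop lupus-like autoimmunity with nephritis. C57BL/6 mice are wild type for Fas and of another background, so background, lpr allele and disease cannot be told apart here. Whether the libraries of a strain come from separate animals is not stated in the labels, so the spread behind each p-value may be technical.

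A microRNA is cut from a hairpin into a duplex, of which the guide strand is loaded into Argonaute and pairs through its seed, bases 2 to 8, with messenger RNAs that it represses, while the other strand is mostly degraded. The miR-26 hairpins lie in introns of Ctdsp genes, which encode small phosphatases acting on the C-terminal domain of RNA polymerase II, and in zebrafish miR-26b represses its own host ctdsp2. miR-26 is abundant in differentiated tissues, is repressed by Myc, and targets Ezh2, a methyltransferase that silences chromatin. In the kidney, reduced miR-26a has been reported in glomeruli of mice with autoimmune glomerulonephritis; the libraries described here were made from whole kidney.

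The mature sequences are shown because the family is defined by its seed and because few bases separate its members. They are the RefSeq sequences of build GRCm38.p6, which held all 5 names, printed 5′ to 3′ with the seed in capitals.
miR-26a-5p: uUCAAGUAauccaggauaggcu
miR-26b-5p: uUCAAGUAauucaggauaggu
miR-26a-1-3p: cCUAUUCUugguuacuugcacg
miR-26a-2-3p: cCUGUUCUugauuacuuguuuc
miR-26b-3p: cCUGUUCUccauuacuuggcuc
Among 1679 mature mouse names in that table, the guide seed UCAAGUA was carried by 2, miR-26a-5p and miR-26b-5p. Over their 21 shared positions the guides differ at 2, C11U and C21U, counted from the 5′ end with the miR-26a base first. The minor arms do not follow the a and b names: miR-26a-2-3p and miR-26b-3p share the seed CUGUUCU, while miR-26a-1-3p has CUAUUCU, which A4G separates from miR-26a-2-3p. The seed CUGUUCU was also that of miR-6932-3p, which had 0 counts in the 6 libraries, and of miR-7039-3p, which was not analysed here. No source used here says how reads that match both guides were assigned, and a read cut short of its last bases tells a from b by position 11 alone.

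The same guide miR-26a-5p is cut from a pair of hairpins, and the minor arms are what distinguishes these loci. The hairpins are shown in RefSeq letters with both mature arms in capitals.
Mir26a-1: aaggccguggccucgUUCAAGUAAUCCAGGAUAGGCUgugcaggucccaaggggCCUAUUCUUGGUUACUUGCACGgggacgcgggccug
Mir26a-2: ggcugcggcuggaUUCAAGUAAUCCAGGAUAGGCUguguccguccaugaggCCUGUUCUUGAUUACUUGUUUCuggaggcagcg
Mir26b: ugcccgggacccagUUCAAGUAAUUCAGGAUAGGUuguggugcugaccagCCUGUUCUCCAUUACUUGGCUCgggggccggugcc
All 3 lie on the plus strand (GRCm38), in the direction of their hosts. In GENCODE M21, Mir26a-1 (chr9:119031796-119031885) lies in intron 5 of 7 of the principal transcript of Ctdspl, Mir26a-2 (chr10:126995530-126995613) in intron 5 of 7 of Ctdsp2, and Mir26b (chr1:74394310-74394394) in intron 4 of 6 of Ctdsp1. A pair of shorter Ctdsp2 transcripts is annotated to start at 126995613, the last base of the Mir26a-2 hairpin.

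The libraries held 5259528 to 6773829 counts, and 451 entries had enough counts to be tested, among them all 5 members. Levels are given in CPM, counts relative to the library total after TMM scaling, which sets the libraries on a common scale. C57BL/6 replicate 2 stood apart. In it, all 6 leukocyte markers exceeded their values in C57BL/6 replicates 1 and 3. So did 3 of 4 mesenchymal markers, but 0 of 3 erythroid, 0 of 2 endothelial and 0 of 8 kidney epithelium markers. Over all 451 tested miRNAs 172 did. Some library of the 3 must be highest for each miRNA, so that count says little by itself. The summed leukocyte markers ran from 2074 to 2703 CPM in MRL/lpr and from 1213 to 3342 CPM in C57BL/6, with replicate 2 at the top. The summed erythroid markers ran from 3476 to 4305 CPM in MRL/lpr and from 594 to 3496 CPM in C57BL/6, with replicate 2 lowest. The summed kidney epithelium markers ran from 111065 to 121817 CPM in MRL/lpr and from 72001 to 115506 CPM in C57BL/6, with replicate 2 lowest; each of these 8 markers, miR-192-5p and miR-194-5p among them, was found in the table and tested. Without C57BL/6 replicate 2 no member of the family passed the test given next, and the log2 fold changes were -0.27 for miR-26a-5p, -0.15 for miR-26b-5p, 0.41 for miR-26a-1-3p, 0.23 for miR-26a-2-3p and -0.62 for miR-26b-3p.

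None of the 5 members differed between the strains past the threshold, a Benjamini-Hochberg adjusted p under 0.05 in edgeR's quasi-likelihood test. Of the 451 tested miRNAs 28 did (6.21%), 19 higher (4.21%) and 9 lower (2%) in MRL/lpr. The number past the threshold in either direction was 54 without C57BL/6 replicate 2, 15 and 11 without C57BL/6 replicates 1 and 3, and 5 without MRL/lpr replicate 3, and it held 0 members each time. At an unadjusted p under 0.05, 1 of the 5 members passed, miR-26b-3p, against 94 of all 451 tested (20.8%), so the family's share was near that of the table. DESeq2 and limma-voom called 0 members. The family held 6.68%, 6.92% and 8.05% of all counts in the MRL/lpr libraries and 7.82%, 6.999% and 7.58% in the C57BL/6 libraries. These shares overlapped (7.22% ± 0.732 in MRL/lpr and 7.47% ± 0.422 in C57BL/6; SD, n = 3; exact permutation test, two-sided, p = 0.7; with 3 against 3 it cannot go below 0.1). Counting error was at most 0.0226 percentage points (95% exact binomial half-width), far below the spread between libraries. Such intervals cover counting error only, since copies made by PCR may have been counted separately.

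miR-26a-5p, the main guide of the family and the 3rd most abundant entry of the table, had 56588, 65935 and 68467 CPM in the MRL/lpr libraries, against 80389, 65264 and 75462 CPM in the C57BL/6 libraries. MRL/lpr replicate 1 was the lowest and C57BL/6 replicate 1 the highest, and the groups overlapped through C57BL/6 replicate 2. The means were 63663 ± 6257 CPM in MRL/lpr and 73705 ± 7714 CPM in C57BL/6 (SD, n = 3), a log2 fold change of -0.21 ± 0.14 (SE; edgeR adjusted p = 0.419; -0.06 when scaled by library size only, and -0.11 without MRL/lpr replicate 1). The 95% interval of the fold ran from 0.697 to 1.07, which includes 1 and moderate falls. In whole kidney, fewer cells that express a miRNA and less of it per cell cannot be told apart. The within-group spread of miR-26a-5p was 0.15 on the log2 scale, and 9.98% of tested miRNAs had a smaller one, against a median of 0.32. Tested miRNAs of all levels are in that comparison. The minor arm miR-26a-2-3p, at a mean of 17.0 CPM, had a spread of 0.12, and 5.32% had a smaller one. It had 77 to 119 counts a library, and a count of 77 has a 95% Poisson interval of 60.8 to 96.2. Counting error is thus at least as large as that spread, which is not a measure of a steady level.

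miR-26b-5p, which carries the same seed, ranked 37th, with 4316, 4662 and 5476 CPM in MRL/lpr and 6456, 4564 and 4440 CPM in C57BL/6. C57BL/6 replicate 1 stood above all others, while the remaining C57BL/6 libraries lay inside the MRL/lpr range. The means were 4818 ± 595 CPM in MRL/lpr and 5153 ± 1130 CPM in C57BL/6 (SD, n = 3), with a log2 fold change of -0.10 ± 0.19 (SE; edgeR adjusted p = 0.786; 95% interval of the fold 0.699 to 1.25). That direction rested on C57BL/6 replicate 1 and on the scaling: without that library the log2 fold change was 0.05, without MRL/lpr replicate 1 it was 0.01, and with library size alone it was 0.06. Summed as 1 entry, the guides gave -0.20 ± 0.14 (edgeR adjusted p = 0.445).

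**Figure D1:**
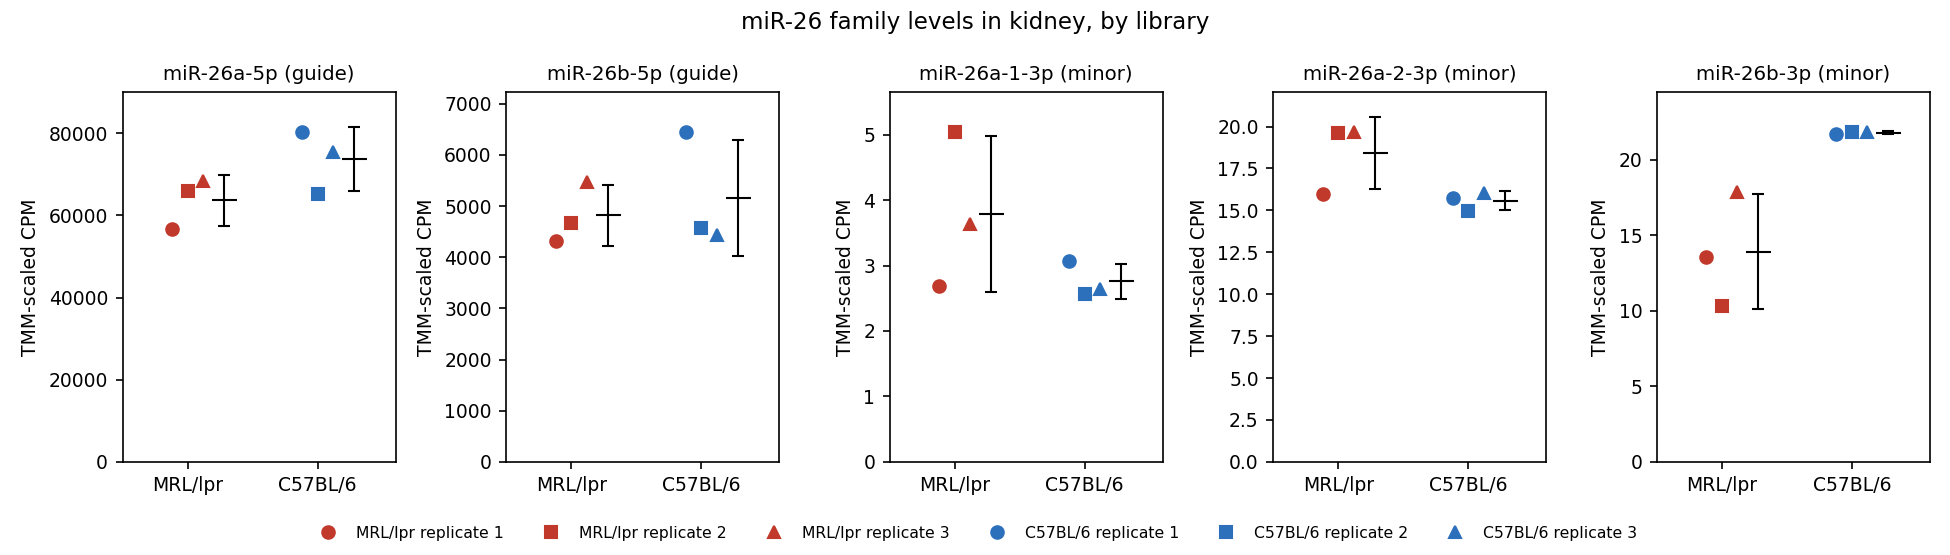
TMM-scaled CPM (y axes from 0) of the 5 miR-26 members in the 3 MRL/lpr and 3 C57BL/6 libraries. Points are libraries, and black bars the mean ± SD. The miR-26b-3p values of 10.3 to 17.9 CPM in MRL/lpr all lie below the 21.7 to 21.8 CPM of C57BL/6, and the groups overlap for the other 4 members.

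The minor arms were present at a few to about 20 CPM and did not move as 1 group. miR-26b-3p, the discarded strand of Mir26b, had 96, 53 and 108 counts in MRL/lpr and 106, 136 and 140 counts in C57BL/6. That is 13.6, 10.3 and 17.9 CPM in MRL/lpr, against 21.7, 21.8 and 21.8 CPM in C57BL/6. All MRL/lpr values lay below all C57BL/6 values. The closest were MRL/lpr replicate 3, with 108 counts (95% Poisson interval 88.6 to 130), and C57BL/6 replicate 1, with 106 (86.8 to 128). Scaled to CPM, these intervals overlap, so counting error alone could close that gap. The C57BL/6 values lay closer together than counting error allows for, so their agreement is not a measure of how little these libraries vary. Groups that do not overlap were common, at 28.8% of tested miRNAs (14% with MRL/lpr above and 14.9% with it below). The means were 13.9 ± 3.81 CPM in MRL/lpr and 21.8 ± 0.0844 CPM in C57BL/6 (SD, n = 3). Its log2 fold change was -0.64 ± 0.28 (SE; edgeR adjusted p = 0.215), which ranked 87th by p among the 451 tested and did not pass. The value moved from -0.50 without MRL/lpr replicate 2 to -0.83 without MRL/lpr replicate 3, and with library size alone it was -0.48.

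miR-26a-2-3p, the discarded strand of Mir26a-2 and a seed match of miR-26b-3p, lay the other way. It had 16.0, 19.6 and 19.7 CPM in MRL/lpr and 15.8, 14.9 and 16.0 CPM in C57BL/6. The groups met at 16.0 CPM, where MRL/lpr replicate 1 fell just under C57BL/6 replicate 3. Means were 18.4 ± 2.13 CPM in MRL/lpr and 15.6 ± 0.573 CPM in C57BL/6 (SD, n = 3), with a log2 fold change of 0.24 ± 0.25 (SE; edgeR adjusted p = 0.614).

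miR-26a-1-3p, the discarded strand of Mir26a-1, had 19, 26 and 22 counts in MRL/lpr and 15, 16 and 17 counts in C57BL/6. Scaled to library size these overlapped, at 2.68, 5.05 and 3.64 CPM in MRL/lpr and 3.07, 2.57 and 2.65 CPM in C57BL/6. The log2 fold change was 0.45 ± 0.39 (SE; edgeR adjusted p = 0.564). The highest count of 26 has a 95% Poisson interval of 17.0 to 38.1 and the lowest of 15 one of 8.40 to 24.7. The 95% interval of the fold ran from 0.745 to 2.49, the widest of the 5 members. Without MRL/lpr replicate 2, the library with the highest value, the log2 fold change was 0.17.

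**Figure D2:**
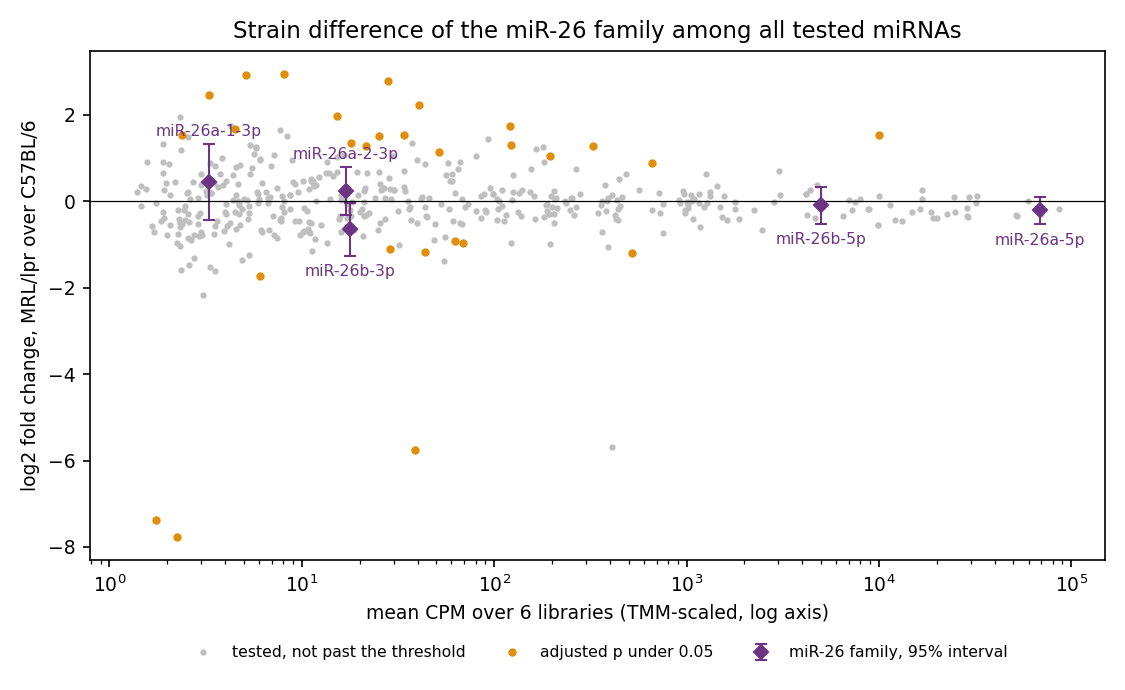
Log2 fold change of MRL/lpr over C57BL/6 (y axis) against mean CPM over 6 libraries (log x axis) for the 451 tested miRNAs. Orange points passed an adjusted p of 0.05, and purple diamonds are the miR-26 members with 95% intervals. The interval of miR-26b-3p alone leaves out 0, before adjustment for the number of miRNAs tested, and no member is orange.

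Counts of the 5p arm far exceeded those of the minor arm for Mir26b, and those of the summed minor arms for Mir26a-1 with Mir26a-2. Those hairpins share miR-26a-5p, so the bias of either alone was not measured. There were 3036, 2675 and 2933 counts of miR-26a-5p per count of its summed minor arms in MRL/lpr, against 4271, 3727 and 4037 in C57BL/6. For Mir26b, there were 318, 453 and 306 counts of miR-26b-5p per count of miR-26b-3p in MRL/lpr, against 298, 209 and 204 in C57BL/6. The miR-26a ratio was lower in every MRL/lpr library and the miR-26b ratio higher, without overlap in either case (exact two-sided permutation p = 0.1 for each, the smallest possible). The closest miR-26b ratios were 306 in MRL/lpr replicate 3 and 298 in C57BL/6 replicate 1. They rest on 108 and 106 counts of miR-26b-3p, so counting error alone could close that gap. Ligation favours some miRNA ends over others, so a ratio between arms is less certain as a level than as a comparison between libraries.

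Limma was used to test arm balance, as log2 of 5p over 3p level, each with 1 CPM added, over the 131 hairpin pairs with both arms past the filter. The log2 ratio of Mir26a-1 was 13.91, 13.41 and 13.85 in MRL/lpr and 14.27, 14.16 and 14.34 in C57BL/6. For Mir26a-2 it was 11.70, 11.64 and 11.69 in MRL/lpr and 12.23, 11.999 and 12.11 in C57BL/6. The first of these means was above 99.2% of pairs and the second above 96.2%, while the mean of Mir26b was above 83.2%. Both Mir26a values divide miR-26a-5p, pooled from both loci, by the minor arm of 1 locus. They are thus at least as high as the balance of that hairpin alone, which was not measured. Their ranks are not measures of a single hairpin. Mir26b had log2 ratios of 8.21, 8.69 and 8.18 in MRL/lpr and 8.15, 7.64 and 7.61 in C57BL/6, so C57BL/6 replicate 1 came close to MRL/lpr replicate 3.

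The differences in log2 ratio, MRL/lpr minus C57BL/6, were -0.53 ± 0.19 for Mir26a-1, -0.43 ± 0.16 for Mir26a-2 and 0.56 ± 0.23 for Mir26b (SE). None passed over all pairs (limma adjusted p = 0.188 for Mir26a-1, limma adjusted p = 0.206 for Mir26a-2 and limma adjusted p = 0.236 for Mir26b), while all 3 had an unadjusted p under 0.05, as did 26 of the 131 pairs (19.8%). Of the 131 pairs 1 passed (0.763%), and 24.4% had groups without overlap, so groups that stand apart were common among hairpins. Mir26a-1 and Mir26a-2 share the miR-26a-5p counts and are not independent of each other. Directions held without any 1 library, from -0.62 to -0.38 for Mir26a-1, -0.49 to -0.38 for Mir26a-2 and 0.39 to 0.74 for Mir26b; the last value, for Mir26b, was without C57BL/6 replicate 1.

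**Figure D3:**
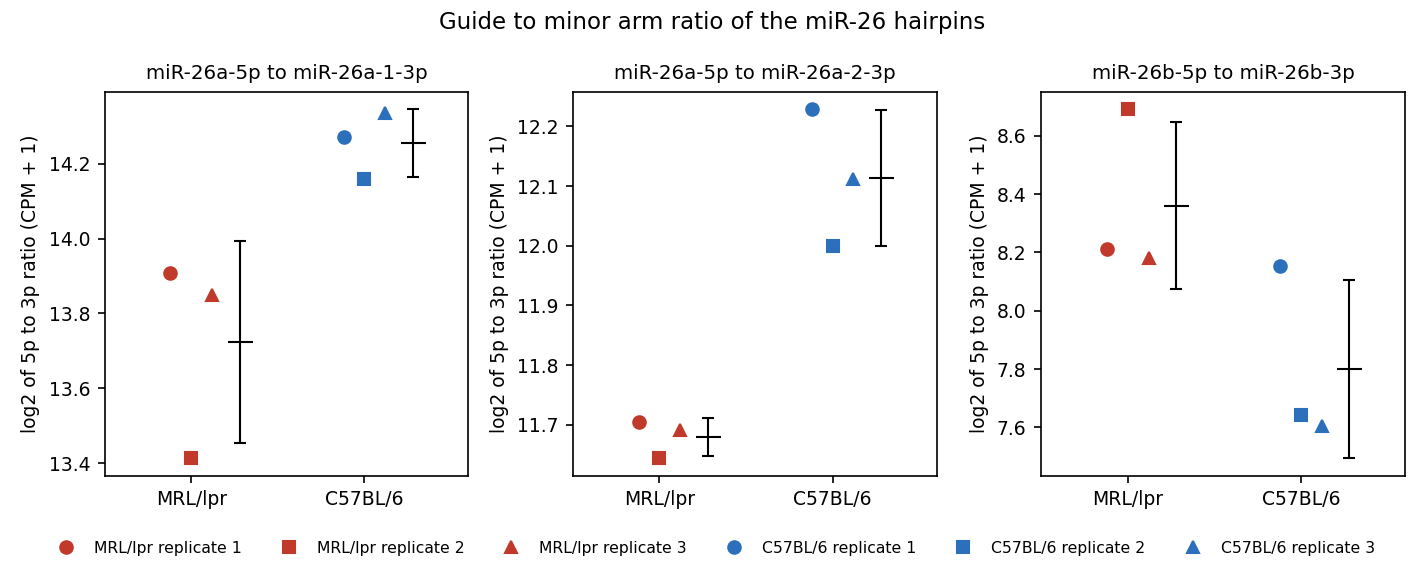
Log2 of the 5p over the 3p level for the 3 miR-26 hairpins in each library, with mean ± SD in black. Each level had 1 CPM added, and y axes do not start at 0. Mir26a-1 and Mir26a-2 both use the pooled miR-26a-5p level. Values for Mir26a-1 and Mir26a-2 are lower in all MRL/lpr libraries and those for Mir26b higher, and none of the differences passed the limma test over 131 pairs.

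The a to b ratio of the guides did not differ beyond the spread between libraries. There were 13.1, 14.1 and 12.5 counts of miR-26a-5p per count of miR-26b-5p in MRL/lpr, against 12.5, 14.3 and 17.0 in C57BL/6. The C57BL/6 libraries held both the lowest and the highest value. On the log2 scale the ratio was 3.73 ± 0.09 in MRL/lpr and 3.85 ± 0.22 in C57BL/6 (SD, n = 3), a difference of -0.13 (exact two-sided permutation p = 0.5). Without C57BL/6 replicate 3, the highest library, that difference was -0.01. miR-26a-5p made up 92.6% to 93.4% of guide counts in MRL/lpr and 92.6% to 94.4% in C57BL/6.

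The a to b balance of the minor arms was worked out after the counts had been seen, so its test is a description. It was 1.38, 2.40 and 1.31 counts of both miR-26a minor arms per count of miR-26b-3p in MRL/lpr, against 0.868, 0.801 and 0.857 in C57BL/6. Every MRL/lpr library was above 1 and every C57BL/6 library below it, whereas the guide ratio overlapped between strains. The mean log2 ratio was 0.70 ± 0.49 in MRL/lpr and -0.25 ± 0.06 in C57BL/6 (SD, n = 3), a difference of 0.95 (exact two-sided permutation p = 0.1, the smallest possible). miR-26b-3p made up 42.1%, 29.4% and 43.4% of the minor-arm counts in MRL/lpr and 53.5%, 55.5% and 53.8% in C57BL/6. That share, the balance, the Mir26b arm ratio and the miR-26b-3p fold change use the same miR-26b-3p counts and are not independent. With 180 to 260 minor-arm counts a library, the 95% exact binomial half-width of such a share was 6.22 to 7.15 percentage points. The difference in log2 ratio was 0.67 without MRL/lpr replicate 2, the most extreme library, and 0.91 without C57BL/6 replicate 2. Summed as 1 entry, the minor arms had a log2 fold change of -0.15 ± 0.22 (SE; edgeR adjusted p = 0.722), and they made up 0.0528%, 0.0495% and 0.0557% of the family's counts in MRL/lpr and 0.0466%, 0.0563% and 0.0507% in C57BL/6.

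Between the miR-26a loci, miR-26a-2-3p was the more abundant minor arm in every library. It had 5.95, 3.88 and 5.41 counts per count of miR-26a-1-3p in MRL/lpr and 5.13, 5.81 and 6.06 in C57BL/6. MRL/lpr replicate 2 lay below the rest, and the groups overlapped (exact two-sided permutation p = 0.6). Without it, the log2 ratio of miR-26a-1-3p to miR-26a-2-3p differed by -0.02 in place of 0.13. How much of the guide miR-26a-5p each locus gives was not measured.

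**Figure D4:**
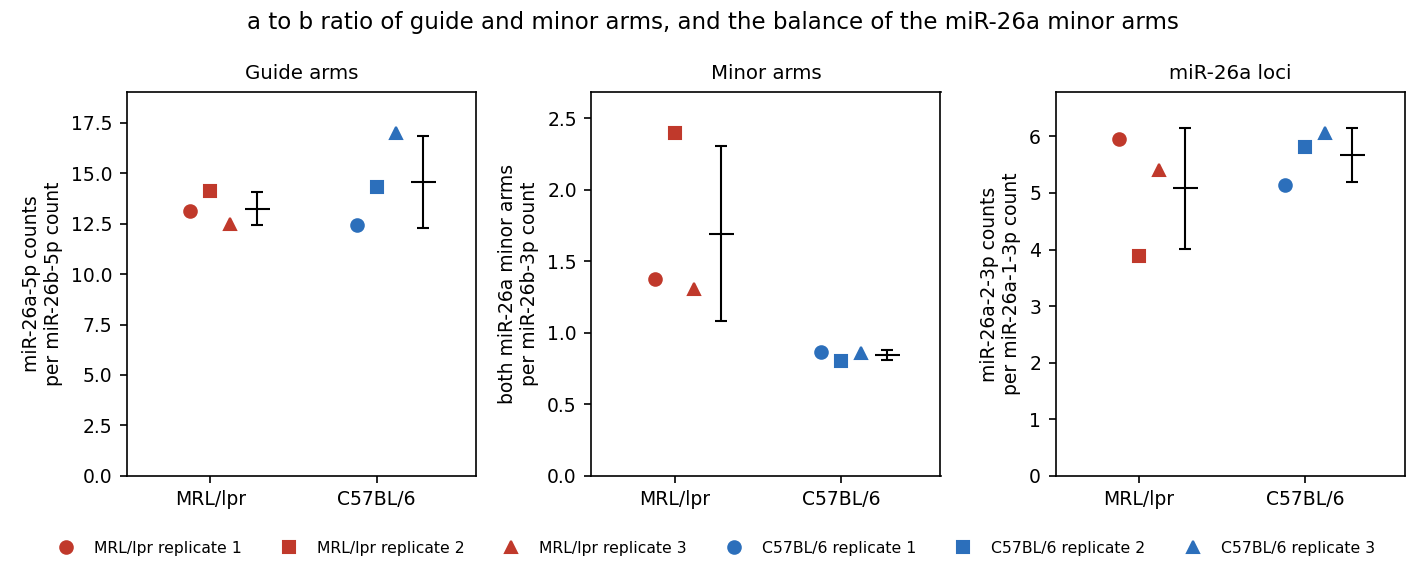
Ratios of raw counts (y axes from 0) in each library, with mean ± SD in black: miR-26a-5p per miR-26b-5p (left), both miR-26a minor arms per miR-26b-3p (middle) and miR-26a-2-3p per miR-26a-1-3p (right). The guide ratio overlaps between strains, at 12.5 to 14.1 in MRL/lpr and 12.5 to 17.0 in C57BL/6, and the minor-arm ratio does not, at 1.31 to 2.40 in MRL/lpr and 0.801 to 0.868 in C57BL/6.

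Other miRNAs known for a target or a regulator that they share with miR-26 were read from the same test. Of 5 miRNAs reported to target Ezh2 none passed (edgeR; 0 at an unadjusted p under 0.05, and 0 by DESeq2 and by limma-voom), with a median log2 fold change of -0.14 (0.03 with library size alone and 0.01 without C57BL/6 replicate 1), against -0.03 over all tested. Among them miR-101a-3p had 120 ± 12.9 CPM in MRL/lpr and 99.4 ± 15.5 CPM in C57BL/6, and miR-214-3p had 99.0 ± 20.4 CPM in MRL/lpr and 112 ± 61.8 CPM in C57BL/6 (SD, n = 3). Of 17 miRNAs reported to be repressed by Myc, as miR-26 is, none passed in edgeR, with a median of 0.01. At an unadjusted p under 0.05 there were 4 of the 17, a share near the 20.8% of all tested. DESeq2 called 1 and limma-voom 0, and edgeR called 1 without C57BL/6 replicate 2 and 1 when scaled by library size only. The most abundant of these, let-7g-5p, had 59912 ± 1608 CPM in MRL/lpr and 59859 ± 7538 CPM in C57BL/6, and let-7a-5p had 46025 ± 7070 CPM in MRL/lpr and 57498 ± 6317 CPM in C57BL/6 (SD, n = 3).

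Of 9 miRNAs from other families that, like miR-26, sit in introns of related host genes, 7 were tested, with a median of 0.01. Higher in MRL/lpr were 19 of all 451 tested (4.21%) and 2 of these 7. They were miR-204-5p and miR-211-5p, from introns of the Trpm3 and Trpm1 channel genes, with log2 fold changes of 1.52 ± 0.18 and 2.22 ± 0.48 (SE; edgeR adjusted p = 0.00141 and 0.0358). Their sequences are alike, so reads may be shared between them. The Pank-intron miRNAs miR-103-3p and miR-107-3p had log2 fold changes of -0.36 and 0.46 and did not pass (edgeR adjusted p = 0.258 and 0.302). The number called in this list was 1 without C57BL/6 replicate 3 and without each MRL/lpr library in turn.

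Of the marker lists, 1 of 6 leukocyte markers passed, miR-155-5p (log2 fold change 1.30, edgeR adjusted p = 0.0331), and 3 passed without C57BL/6 replicate 2, against 0 without C57BL/6 replicate 1 or 3 and 0 without MRL/lpr replicate 1 or 3. DESeq2 called 3 of these 6 and limma-voom 1. Of all 451 tested, edgeR called 28 (6.21%), DESeq2 48 and limma-voom 21. Without C57BL/6 replicate 2 edgeR called 54 of 470 tested. Of 8 kidney epithelium markers 2 were higher, miR-204-5p and miR-802-5p, and 1 without MRL/lpr replicate 3. The first of these, miR-204-5p, is also in the list of intron miRNAs above, and 4.21% of all tested were higher. No erythroid, endothelial or mesenchymal marker passed, of 3, 2 and 4 tested (edgeR; 0 at an unadjusted p under 0.05 in each list, and 0 by DESeq2 and limma-voom). The endothelial guide miR-126a-3p, as abundant as miR-26a-5p, had 62428 ± 8440 CPM in MRL/lpr and 75997 ± 6958 CPM in C57BL/6 (SD, n = 3). The part of leukocytes or of other cell types in the family values was not tested.

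The miRNAs whose levels followed the guides most closely over the 6 libraries were found by the root mean square difference between their log2 CPM values, after adding 1 and centring each on its mean, among 407 tested miRNAs with a miRBase name. For miR-26a-5p they were miR-30c-2-3p (0.07), miR-700-3p (0.08) and miR-187-5p (0.08), against a median of 0.35. Their mean levels were 91.0, 31.6 and 7.91 CPM. At such levels counting error is not small beside these distances, which were picked as the smallest of 407. For miR-26b-5p the closest were miR-126a-5p (0.13), miR-378a-3p (0.14) and let-7f-5p (0.14), against a median of 0.38. miR-26b-5p itself lay at 0.15 from miR-26a-5p. The guides themselves varied little, with root mean square deviations from their own means of 0.16 for miR-26a-5p and 0.21 for miR-26b-5p.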

How the data were processed

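Total RNA from kidney was made into small RNA libraries by adapter ligation, PCR and gel size selection, per the labels' protocols. The authors deposited raw counts for each mature miRNA, as whole numbers without normalization. Bowtie2, DESeq2 and build GRCm38.p6 are named in the submitters' processing notes, with no role; neither the miRNA annotation nor the treatment of multiply matching reads is stated in the sources used here. Of 1542 entries 1190 carry miRBase names. Columns were matched to samples by the group, age and replicate number in their names.

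Counts were fitted in R 4.3.3 with edgeR 4.0.16 (filterByExpr, minimum count 10 and total 15; TMM; robust quasi-likelihood; group alone; common biological coefficient of variation 35.1%), with Benjamini-Hochberg adjustment over 451 miRNAs. Standard errors come from the coefficient and its F statistic. Arm ratios used limma 3.58.1, and DESeq2 1.42.0 was an alternative; single ratios used exact permutation in scipy 1.17.1. The scripts were tested on simulated data. No library copied another (chi-square per degree of freedom 123 to 726 within groups). Members and lists were chosen with earlier results of these data known. Named miRNAs were the members, the 3 closest to each guide, and up to 4 called or else the 2 most abundant members per list; miR-101a-3p and miR-214-3p, let-7g-5p and let-7a-5p follow this rule, and miR-103-3p and miR-107-3p were named after their values were seen.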

Additional observations from a re-analysis of the deposited data

How the results depend on the processing

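Over 107 alternative values of the 5 fold changes and 3 arm ratios, 104 kept their direction and none passed its threshold (lowest adjusted p = 0.152, limma). The 107 include 3 fits of a sum in place of a single entry. Summed guides were set beside miR-26a-5p, summed minor arms beside miR-26b-3p, and both miR-26a minor arms beside Mir26a-2. The 3 that turned all belong to miR-26b-5p: 0.065 with library size alone, which moved the median log2 fold change of all tested miRNAs to 0.12 from -0.03, 0.012 without MRL/lpr replicate 1 and 0.049 without C57BL/6 replicate 1 (range over libraries left out -0.24 to 0.049). The family share turned to 0.0198 percentage points without MRL/lpr replicate 1 (range -0.665 to 0.0198), and the log2 ratio of miR-26a-1-3p to miR-26a-2-3p to -0.024 without MRL/lpr replicate 2 (range -0.024 to 0.23). The a to b ratio of the guides kept its direction (-0.24 to -0.01 with 1 library left out). The cause was not tested. The number of miRNAs called over the table was 28 (19 higher, 9 lower), 64 without a filter (34 and 30), 48 with DESeq2 (32 and 16), and 5 to 54 with 1 library left out (2 to 42 higher, 3 to 15 lower). A replicate block gave 13 calls (8 higher, 5 lower) and called 0 members. Same-numbered libraries did not deviate together (correlations of deviations -0.37, 0.03 and -0.37), and those with unlike numbers ran from -0.18 to 0.39. Deviations from a mean of 3 libraries sum to 0, so these values cannot settle whether the numbers pair the libraries. Pairing is not stated in the labels. Tests with fewer libraries have less power. The counts of 15 to 26 behind miR-26a-1-3p limit what can be seen of that arm. The balance of the minor arms and its alternatives were chosen after seeing the data, and ran from 0.67 to 1.11 on the log2 scale with 1 library left out.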
